A study of Saccharomyces cerevisiae with 4 samples.

Results

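The BY copies of yeast genes were followed from a haploid BY cell into a hybrid nucleus shared with the RM genome. Reads that carry the BY base at a SNP between the strains were counted for 4442 gene pairs, and each column of BY reads was scaled by its own total, in BY reads per 1000000 BY reads (CPM). These are 4 of the 8 allele columns of the study, 1 for each of its 4 libraries. The hybrid, an a/alpha diploid, came from a cross of BY4741 with RM11-1alpha. The co-culture mixed haploid a cells of BY4741 with haploid a cells of RM11-1a in 1 flask, so its BY reads come from the haploid BY cells alone. BY4741 is a laboratory strain of the S288C background that lacks HIS3, LEU2, MET17 and URA3, and RM11 descends from a vineyard isolate. Each group had 2 libraries from cultures that the labels call technical replicates, harvested at the same density. The groups differ in ploidy, in mating type, in the presence of the other genome and in the RM parent, and the effects of these differences cannot be told apart.

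The hybrid libraries held 1393871 (replicate 1) and 2073694 (replicate 2) BY reads, and those of the co-culture 1333473 (replicate 1) and 1556632 (replicate 2). A median gene had 106, 160, 111 and 131 BY reads in the same order, and 3 BY reads correspond to 2.15, 1.45, 2.25 and 1.93 CPM. Replicates of a group differed by more than sampling noise, and p-values measure the spread between technical replicates. Of the 4442 pairs, 4215 had enough BY reads to be tested. Values of a gene are given as replicate 1 and then replicate 2 of a group, and changes as log2 of hybrid over co-culture with an SE. A gene is called higher or lower at an adjusted p of 0.05 in edgeR's quasi-likelihood test. The SE is the size of the change divided by the square root of that test's F statistic. For large falls to few reads, such as those of MFA1, FUS3 and BAR1, it is smaller than counting error alone. Counted on SNP sites and not scaled by length, CPM values compare samples and not genes. In such bulk samples fewer cells that express a gene and less RNA per cell cannot be told apart. As a check of the BY counts, MET17, which is deleted in BY4741, had 0 BY reads in both co-culture libraries and 0 and 1 in the hybrid, although an overlap with YLR302C makes its count uncertain.

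With the column totals, BY copies were lower in the hybrid more often than higher. Of 4215 genes, 663 were called higher (15.7%) and 960 lower (22.8%), and the median log2 change was −0.09 with quartiles of −0.36 and 0.17. These shares of all genes are the background for the BY counts of the lists below. Large changes were mostly falls, since 38 genes were at least 2-fold higher (0.902%) and 201 at least 2-fold lower (4.77%). The split depended on the scaling. Higher calls made up 40.9% of all calls with the column totals and 52.1% under TMM scaling, which gave 822 higher and 755 lower. RLE scaling gave 845 higher and 740 lower. DESeq2, which scales in its own way, called 820 genes, 455 higher and 365 lower. All were among the 1623 called with the column totals and in the same direction as there. Where a gene list below had 0 BY copies called in a direction, edgeR gave 0 at an unadjusted p under 0.05 and DESeq2 called 0 in that direction, except for meiosis (1 higher) and lysine synthesis (1 lower) at the unadjusted p.

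**Figure D1:**
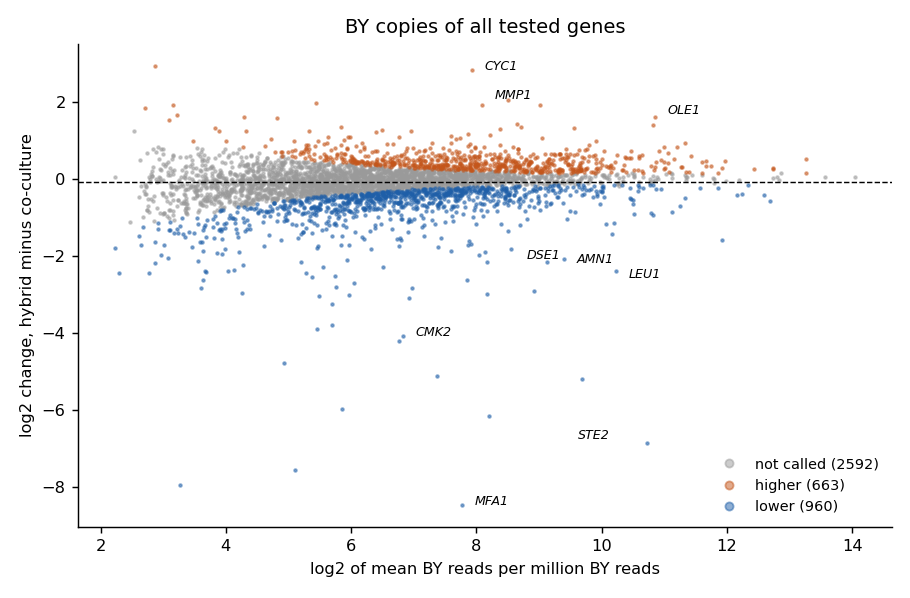
Log2 change of the BY copies, hybrid minus co-culture, against the log2 of the mean BY level in CPM over the groups, with 1 point for each of the 4215 genes tested. Orange points are the 663 genes called higher and blue points the 960 called lower, the dashed line is the median of all genes, and the falls reach −8.47 (MFA1) while the largest rise among the labelled genes is 2.82 (CYC1).

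The change of the RM copies of the same genes, in the same 4 libraries, is given beside many BY values below. Both copies meet the same cell in the hybrid, so the BY change minus the RM change was tested within libraries. It was positive in 437 of 4269 genes (10.2%) and negative in 714 (16.7%). That split turned with the scaling, to 602 positive and 547 negative under TMM and 632 and 540 under RLE. Of the negative calls, 202 lay on chromosome XIII and 48 at the left end of chromosome II, which are described at the end, and in the 3824 genes elsewhere that were also tested for BY, 426 were positive and 460 negative. Of the RM copies by themselves, 605 of 4188 were called higher (14.4%) and 519 lower (12.4%), the background for the RM counts of the lists below. For the BY minus RM change 1151 genes were called in all, and 352 with DESeq2. The number was also smaller when any 1 library was left out. The BY change, the RM change and their difference share libraries, so they are not separate evidence of one another.

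In yeast the mating type decides which mating genes are on. Haploid a cells express a-specific genes, which make the a-factor pheromone and the receptor for alpha-factor, and haploid cells of either type express haploid-specific genes for pheromone signalling. In an a/alpha diploid the alpha2 protein, with Mcm1, represses a-specific genes at an operator that alpha2 binds on either side of Mcm1, and with a1 it represses haploid-specific genes. The 7 letters TTACATG, an outer part of that operator chosen after the promoters were read, stood on either strand in the 250 bases before the start of all 5 measured a-specific genes, and in 147 of 4325 promoters overall (3.4%). The longer CATGTNNTT, which can overlap it, stood in 3 of the 5 and in 3.5% of all promoters. The stretches around the matches are shown because this set of genes had the lowest median change of the lists. That of BAR1 begins before the 250 bases searched, and there it holds a further reverse complement, catgtaa, left in lower case. The stretches run 5′ to 3′ on the strand of the gene, from the R64 reference sequence of S288C by NCBI RefSeq. TTACATG or its reverse complement is in capitals where it lies in the 250 bases searched:
STE2, chrVI:82343-82383, plus strand: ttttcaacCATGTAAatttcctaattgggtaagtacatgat
MFA1, chrIV:1384940-1384980, plus strand: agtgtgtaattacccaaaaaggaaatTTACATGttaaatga
STE6, chrXI:46475-46515, minus strand: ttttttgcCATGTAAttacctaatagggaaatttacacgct
BAR1, chrIX:322075-322115, plus strand: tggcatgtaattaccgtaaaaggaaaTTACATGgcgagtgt
ASG7, chrX:101897-101937, minus strand: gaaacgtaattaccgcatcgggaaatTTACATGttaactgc
The strings locate letters in the reference sequence and were not tested for binding.

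All 5 a-specific genes of the BY genome fell. STE2 (YFL026W), the alpha-factor receptor gene, stood at 28.0 and 29.4 CPM in the hybrid and 3318 and 3411 CPM in the co-culture. Its change of −6.86 ± 0.09 (adjusted p = 4.46e-31) was far beyond the spread of the replicates. MFA1 (YDR461W), a gene of the a-factor precursor, had 1 and 3 BY reads in the hybrid and 560 and 701 in the co-culture, which gives −8.47 on the log2 scale. Its SE of 0.21 understates the counting error of so few reads. BAR1 (YIL015W), the gene of the protease against alpha-factor, was at 4.30 and 10.6 CPM in the hybrid and 586 and 579 CPM in the co-culture (−6.16 ± 0.15). STE6 (YKL209C), the a-factor exporter gene, was at 39.5 and 46.3 CPM in the hybrid and 1606 and 1616 CPM in the co-culture (−5.21 ± 0.09). The hybrid libraries kept STE2 and STE6 reads well above the level of 3 reads. ASG7 (YJL170C), a gene that inhibits signalling after mating, was the lowest of the 5 in the co-culture and had the smallest change, with 7.89 and 3.86 CPM in the hybrid and 36.8 and 21.8 CPM in the co-culture (−2.37 ± 0.38, adjusted p = 7.77e-06). The median of the list was −6.16 for the BY copies and −5.97 for the RM copies. Of the 5, MFA1 and STE6 changed more in BY than in RM, by −2.50 ± 0.77 (adjusted p = 0.00712) and −0.46 ± 0.16 (adjusted p = 0.018). For MFA1 that call was lost under DESeq2 (adjusted p = 0.0554) and without hybrid replicate 2.

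Of the haploid-specific genes of BY, 8 of the 9 tested fell, with a median of −3.00, a value that STE18 at its ratio of counts left as it was. GPA1 (YHR005C), the alpha subunit gene of the mating G protein, was at 5.02 and 12.1 CPM in the hybrid and 328 and 319 CPM in the co-culture (−5.12 ± 0.17). STE18 (YJR086W), the gamma subunit gene, had 1 BY read over the hybrid libraries and 199 over the co-culture libraries. That ratio of CPM is 239 (95% counting interval 42.4 to 9480, which covers counting error only). FUS3 (YBL016W), the mating MAP kinase gene, was at 0.72 and 2.41 CPM in the hybrid and 127 and 101 CPM in the co-culture (−5.97 ± 0.31), and it lies in the stretch of chromosome II described at the end. FAR1 (YJL157C), which arrests the cell cycle for mating, was at 71.7 and 58.4 CPM in the hybrid and 501 and 520.4 CPM in the co-culture (−3.00 ± 0.10).
RDH54 (YBR073W), a recombination gene, changed by −2.64 ± 0.10, NEJ1 (YLR265C), needed for end joining in haploids, by −2.72 ± 0.19, RME1 (YGR044C), a repressor of meiosis, by −4.80 ± 0.35 and AXL1 (YPR122W), for a-factor processing and haploid budding, by −1.82 ± 0.34. DIG2 (YDR480W), a repressor of the mating transcription factor, missed the threshold at −0.47 ± 0.20 (adjusted p = 0.0558). The RM copies had a median of −2.93, and for 0 of the 9 genes did BY and RM changes differ at an adjusted p of 0.05 (1 at an unadjusted p under 0.05 with edgeR, 0 with DESeq2).

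**Figure D2:**
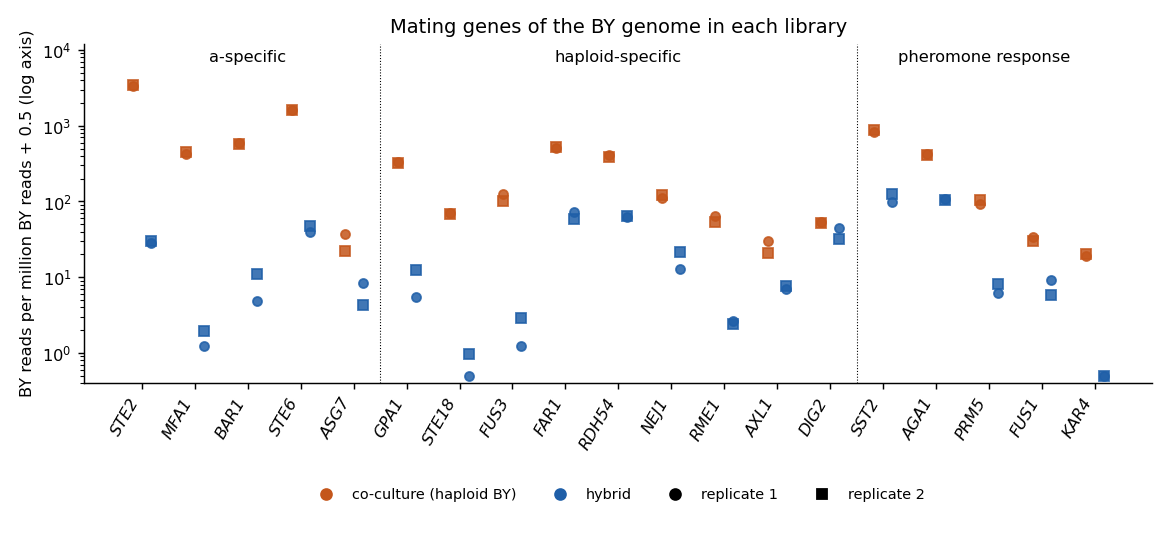
BY level in CPM plus 0.5, on a log axis, in each of the 4 libraries for a-specific, haploid-specific and pheromone response genes, in orange for the co-culture and blue for the hybrid, with circles for replicate 1 and squares for replicate 2. The hybrid points lie below the co-culture points for every gene drawn, with STE2 at 28.0 and 29.4 against 3318 and 3411 and KAR4 at 0 reads in the hybrid. The pheromone response genes drawn were picked from the 8 of 20 called lower, and the 1 called higher and the 11 not called are left out.

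Targets of the pheromone pathway fell in part, with 8 of 20 lower and 1 higher (all genes: 22.8% and 15.7%). The median was −0.32, also with KAR4 at its bound. SST2 (YLR452C), which ends the signal at the G protein, was at 97.6 and 125 CPM in the hybrid and 836 and 889 CPM in the co-culture (−2.92 ± 0.09). AGA1 (YNR044W), the anchor of a-agglutinin, was at 107 and 106 CPM in the hybrid and 427 and 415 CPM in the co-culture (−1.99 ± 0.09). PRM5 (YIL117C), the gene of a membrane protein induced by pheromone, changed by −3.81 ± 0.23 and FUS1 (YCL027W), for cell fusion, by −2.23 ± 0.32. KAR4 (YCL055W), a regulator of nuclear fusion genes, had 56 BY reads in the co-culture and 0 in the hybrid, which is at least 22.4-fold lower against 3 reads over the hybrid group. Of the pathway's kinase genes, FUS3 fell as given above, while STE11 at −0.17 ± 0.11, STE7 at 0.14 ± 0.14 and STE20 at −0.14 ± 0.07 did not pass. The 1 rise, of PRM10, was 0.91 ± 0.19 (adjusted p = 0.000384), and its RM copy changed by −0.86 ± 0.16. TGAAACA, a pheromone response element, stood on either strand in 10 of the 20 promoters of 250 bases and in 5.9% of all.

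Genes of alpha cells were low in both groups. SAG1, the alpha-agglutinin gene, had 16.5 and 14.5 CPM in the hybrid and 12.0 and 16.7 CPM in the co-culture and did not pass (0.08 ± 0.32, adjusted p = 0.874). AFB1, an alpha-specific gene for a-factor barrier, fell by 1.30 ± 0.33 from 20.2 and 22.5 CPM in the co-culture, a call that DESeq2 did not make. STE3, the a-factor receptor gene, had 1 BY read in each hybrid library and 2 and 7 in the co-culture and was not tested. Bud site genes place the next bud differently in haploid and diploid cells. Of 11, 6 were lower and 0 higher (3 lower with DESeq2), where all genes had 22.8% and 15.7%. AXL2 (YIL140W), the axial landmark, was at 182 and 194 CPM in the hybrid and 295 and 336 CPM in the co-culture (−0.75 ± 0.09), and RAX2 changed by −0.60 ± 0.10, BUD3 by −0.44 ± 0.09 and BUD2 by −0.38 ± 0.10.

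Genes of entry into meiosis were lower in part in the growing diploid. Of 10 tested, 6 BY copies were lower and 0 higher (1 higher under TMM or RLE scaling), where all genes had 22.8% and 15.7%. The median was −1.12. IME1 (YJR094C), the master activator of meiosis, stood at 31.6 and 34.7 CPM in the hybrid and 71.2 and 75.8 CPM in the co-culture (−1.14 ± 0.17). Its RM copy had 8 and 17 reads in the hybrid and 1 in each co-culture library. IME4 (YGL192W), an RNA methyltransferase gene of the meiotic switch, was at 87.5 and 78.6 CPM in the hybrid and 319 and 288 CPM in the co-culture (−1.88 ± 0.10), with an RM change of −1.77 ± 0.11. Its reads are uncertain because it overlaps YNCG0006C, a non-coding RNA of the annotation. SPO11, which makes the breaks of recombination, changed by −1.65 ± 0.39 in BY and −0.08 ± 0.31 in RM, and DMC1, the meiotic recombinase gene, by −2.84 ± 0.44. NDJ1 (YOL104C), a meiotic telomere gene, was among the 15 largest falls, with 9.33 and 12.1 CPM in the hybrid and 194 and 217 CPM in the co-culture (−4.23 ± 0.17). The RM copy of NDJ1 had 3 and 8 reads in the hybrid and 6 and 11 in the co-culture, so the high level was that of the haploid BY copy.

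Genes that free a daughter cell from its mother were lower for BY and higher for RM in the hybrid. After division the daughter cell makes enzymes that digest the septum, and Amn1 holds that programme back. AMN1 is known to differ in activity between the BY and RM alleles. Of 15 tested, 11 BY copies fell and 1 rose (all genes: 22.8% and 15.7%), with a median of −0.58. Of the RM copies 9 rose and 4 fell (all RM copies: 14.4% and 12.4%), with a median of 0.47. BY minus RM changes were negative in 10 and positive in 1 (all genes: 16.7% and 10.2%).
DSE1 (YER124C), a daughter-specific wall protein gene, had BY levels of 165 and 166 CPM in the hybrid and 592 and 585 CPM in the co-culture (−1.83 ± 0.08). Its RM copy was at 179 and 186 CPM in the hybrid and 13.2 and 19.5 CPM in the co-culture (3.46 ± 0.17). Far apart in the co-culture, the 2 copies came to lie within the range of 165 to 186 CPM in the hybrid. DSE2 (YHR143W), a second such gene, had BY levels of 735 and 731 CPM in the hybrid and 1663 and 1591 CPM in the co-culture and RM levels of 820.4 and 822 CPM in the hybrid and 69.9 and 66.8 CPM in the co-culture. CTS1 (YLR286C), the endochitinase that opens the septum, had BY levels of 2018 and 1878 CPM in the hybrid and 5975 and 5726 CPM in the co-culture and RM levels of 2382 and 2391 CPM in the hybrid and 399 and 350.3 CPM in the co-culture. SCW11 (YGL028C), a glucanase gene, had BY levels of 388 and 364 CPM in the hybrid and 683 and 635 CPM in the co-culture and RM levels of 374 and 334 CPM in the hybrid and 61.8 and 56.7 CPM in the co-culture. In each of the 3 other genes, too, the BY and RM values lay far closer together in the hybrid. BY minus RM changes were −5.28 ± 0.17 for DSE1, −4.74 ± 0.09 for DSE2, −4.27 ± 0.05 for CTS1 and −3.38 ± 0.11 for SCW11.

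**Figure D3:**
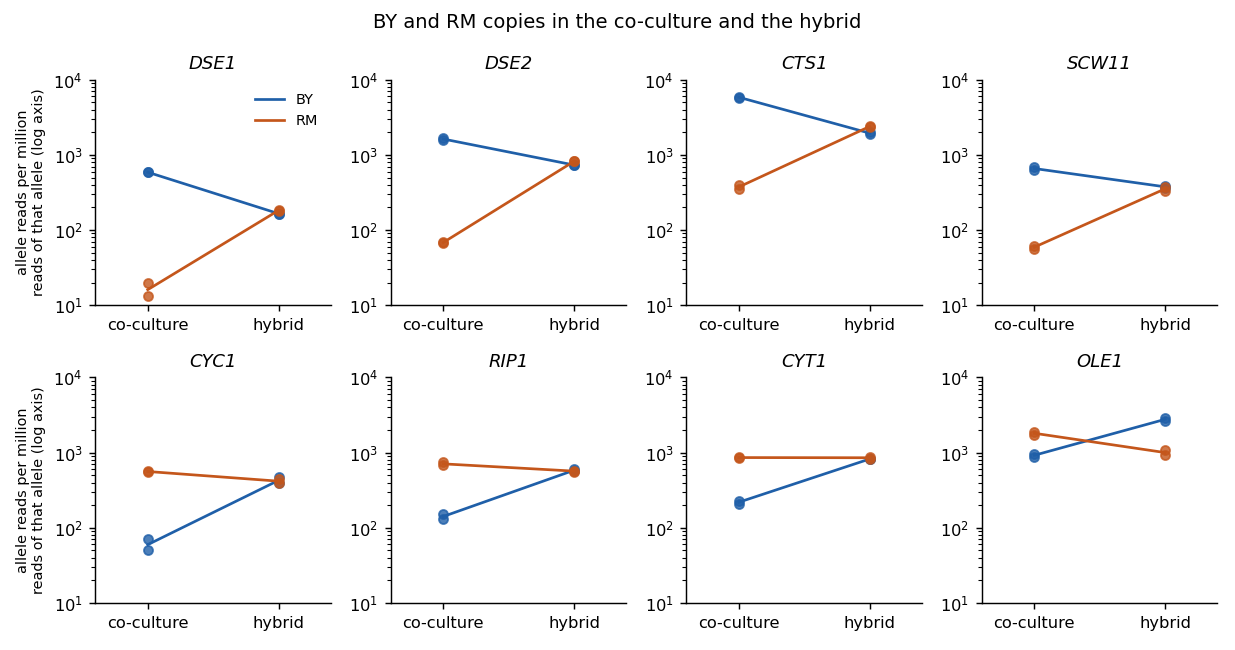
Level of the BY copy (blue) and the RM copy (orange) in CPM, each scaled to the reads of its own allele, on a log axis, in the co-culture and the hybrid, with 1 point per library and lines through the geometric means. BY and RM points that lie apart in the co-culture lie close together in the hybrid for DSE1, DSE2, CTS1, SCW11, CYC1, RIP1 and CYT1, and for OLE1 the order of the copies turns over.

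The other genes of the list varied. AMN1 (YBR158W) itself fell in both genomes, from 1057 and 1125 to 273 and 242 CPM in BY (−2.10 ± 0.07) and by 1.04 ± 0.08 in RM, with a BY minus RM change of −1.06 ± 0.09. NIS1, a bud neck gene, changed by −1.15 ± 0.20 in BY and −1.03 ± 0.23 in RM, and ASH1, a daughter-specific repressor of mating type switching, by −0.41 ± 0.09 and −0.43 ± 0.09. PRY3, a wall protein gene, was at 0.12 ± 0.07 in BY, which did not pass, and 1.43 ± 0.07 in RM, a difference of −1.32 ± 0.09 that was called. CHS2, the chitin synthase of the septum, was the 1 rise (0.38 ± 0.14), and that call was lost with DESeq2 and without hybrid replicate 1 or co-culture replicate 2.

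Respiratory genes of the BY genome rose in the hybrid. The respiratory chain passes electrons from NADH and succinate through cytochromes to oxygen, and in yeast its nuclear genes are activated by Hap1, which senses heme, and by the Hap2/3/4/5 complex, which binds CCAAT. The HAP1 gene of the S288C background is known to carry a Ty1 insertion. Of 31 tested, 23 BY copies were higher and 1 lower, against 15.7% and 22.8% of all genes, with a median of 0.54. Of the RM copies 2 were higher and 18 lower, with a median of −0.31, and BY minus RM changes were positive in 27 and negative in 1. Without chromosome XIII 21 of 28 rose.
CYC1 (YJR048W), the main cytochrome c gene, had the largest rise among genes with a mean of at least 50 BY reads, from 50.2 and 70.7 to 389.6 and 468 CPM (2.82 ± 0.12, adjusted p = 4.94e-18). Its RM copy went from 552 and 569 to 390.0 and 445 CPM (−0.42 ± 0.08). RIP1 (YEL024W), the iron-sulfur protein of complex III, was at 603 and 563 CPM in the hybrid and 151 and 132 CPM in the co-culture (2.04 ± 0.08), with an RM change of −0.32 ± 0.07. CYT1 (YOR065W), the cytochrome c1 gene, was at 824 and 819.8 CPM in the hybrid and 210.0 and 227 CPM in the co-culture (1.91 ± 0.07), with an RM change of −0.01 ± 0.06. Other complex III genes rose less, QCR9 by 1.28 ± 0.09 and QCR2 by 1.07 ± 0.07.

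Genes of the other complexes rose too. SDH1, of succinate dehydrogenase, rose by 1.22 ± 0.15, COX4 and COX12, of cytochrome oxidase, by 1.10 ± 0.10 and 0.81 ± 0.11, and ATP2, of ATP synthase, by 0.72 ± 0.06. NDE1 (YMR145C), the external NADH dehydrogenase gene, was at 2616 and 2644 CPM in the hybrid and 985 and 1019 CPM in the co-culture (1.39 ± 0.06), and it lies on chromosome XIII, where its RM copy rose by 0.40 ± 0.06. COX5B, the oxidase subunit used when oxygen is low, was the 1 that fell (−0.71 ± 0.19), a call lost with DESeq2 and without hybrid replicate 1. ATP1 and COR1, in the stretch of chromosome II described below, still rose, by 0.35 ± 0.06 and 0.36 ± 0.07. CCAAT stood on either strand in 25 of the 31 promoters of 250 bases (80.6%) and in 35.9% of all. It is shown in capitals in 3 genes that rose, from R64, 5′ to 3′ on the strand of the gene, because most promoters of the list hold it:
RIP1, chrV:107001-107029, plus strand: ctccataacggaCCAATcagcgttttgcg
QCR9, chrVII:859667-859695, minus strand: attatacacgacCCAATcaaacgcgggga
QCR2, chrXVI:919184-919212, plus strand: attcccaacgaaCCAATagaaggcccgcc
These matches are a description of letters only, and CYT1 and CYC1 held none in the same window.

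Regulators and oxygen-linked genes moved in different directions. HAP1 (YLR256W) was at 462 and 472 CPM in the hybrid and 624 and 626 CPM in the co-culture (−0.42 ± 0.06), while its RM copy changed by 0.23 ± 0.08. HAP4, the activating subunit of the Hap complex, changed by 0.46 ± 0.09 in BY and −0.78 ± 0.08 in RM. HEM1, the entry enzyme of heme synthesis, rose by 0.65 ± 0.06, and HEM13, a later enzyme induced without oxygen, was at −0.71 ± 0.12. ANB1, a hypoxic translation factor gene with a near-identical paralog that makes its reads uncertain, went from 33.0 and 35.3 to 3.59 and 4.82 CPM (−2.96 ± 0.34). OLE1 (YGL055W), the fatty acid desaturase, went from 958 and 886 to 2879 and 2667 CPM in BY (1.59 ± 0.06) and from 1903 and 1717 to 1072 and 933 in RM (−0.86 ± 0.07), so BY was the lower copy in the co-culture and the higher in the hybrid. HMX1 (YLR205C), heme oxygenase, rose by 1.96 ± 0.21 in BY and changed by −1.11 ± 0.14 in RM. In all, 4 of 15 genes of heme and hypoxia rose and 5 fell, where all genes had 15.7% and 22.8%. HAP3 (−1.52 ± 0.30 in BY, 0.96 ± 0.26 in RM) is on the same stretch of chromosome II. Enzymes of the TCA cycle did not follow the respiratory chain, with a median of −0.06. Of 11, 1 was higher and 4 lower (0 lower with DESeq2), where all genes had 15.7% and 22.8%.

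Ribosomal proteins of the mitochondrion, which translate the chain's organellar subunits, rose with it. Of 46 tested, 9 RM copies were higher and 1 lower (all RM copies: 14.4% and 12.4%), with a median of 0.12. For BY 27 were higher and 1 lower (all genes: 15.7% and 22.8%), with a median of 0.46. The higher count was 16 with DESeq2 and 16 without co-culture replicate 1. MRPL8 was at 85.4 and 82.0 CPM in the hybrid and 40.5 and 38.5 CPM in the co-culture (1.08 ± 0.16), RSM25 changed by 1.09 ± 0.18 and MRPL4 by 0.89 ± 0.12. The 1 fall was of MRP8, listed by its name (−0.79 ± 0.17). MRPL16, on the left end of chromosome II, did not pass (−0.08 ± 0.13).

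Sterol genes of BY were partly higher. Of 19 ergosterol genes, 4 RM copies were higher and 5 lower with a median of −0.06. For BY 12 were higher and 1 lower (all genes: 15.7% and 22.8%) with a median of 0.39. Without the genes of chromosome XIII 7 of 14 were higher. HMG1 (YML075C), HMG-CoA reductase, was at 1111 and 1045 CPM in the hybrid and 458 and 413 CPM in the co-culture (1.31 ± 0.07) on chromosome XIII, and its paralog HMG2 was the 1 that fell (−0.45 ± 0.08). ERG11 (YHR007C), the sterol demethylase, was at 1101 and 1024 CPM in the hybrid and 663 and 614 CPM in the co-culture (0.73 ± 0.06), ERG10 changed by 0.66 ± 0.06 and ERG5 by 1.05 ± 0.10.
Of 16 iron uptake genes 4 were higher and 2 lower, where all genes had 15.7% and 22.8%, so the counts of this list stayed near the background. FTR1, the iron permease, rose by 0.61 ± 0.06 and FRE1, a metalloreductase, by 0.65 ± 0.07, while their RM copies changed by −0.33 ± 0.06 and −0.51 ± 0.07. FET4, the low-affinity iron transporter on chromosome XIII, changed by −0.60 ± 0.07 in BY and by 1.86 ± 0.13 in RM. FET3, the ferroxidase partner of FTR1, did not pass (−0.11 ± 0.06, adjusted p = 0.132). TGCACCC, which the iron regulator Aft1 binds, stood in 8 of 17 promoters and in 1.3% of all. FTR1 held it, as did FET4 and ENB1 (−0.65 ± 0.09), the 2 called lower. FRE1 and HMX1, also of the list and called higher, did not hold it.

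Phosphate, stress and chaperone genes of BY were mostly lower or did not pass. Of 13 phosphate genes 8 were lower and 3 higher (all genes: 22.8% and 15.7%), with medians of −0.45 in BY and 0.13 in RM. With DESeq2 5 were lower, and without co-culture replicate 2 1 was higher. SPL2 (YHR136C), a regulator of low-affinity phosphate uptake, was at 17.9 and 14.5 CPM in the hybrid and 77.2 and 78.4 CPM in the co-culture (−2.29 ± 0.20). PHO84 (YML123C), the high-affinity transporter, was at 1629 and 1529 CPM in the hybrid and 2943 and 2828 CPM in the co-culture (−0.87 ± 0.06), and its RM copy went the other way (1.24 ± 0.06). It lies on chromosome XIII and overlaps the non-coding YNCM0001W. PHO8, vacuolar phosphatase, changed by −1.48 ± 0.11, and VTC3, of polyphosphate synthesis, by −0.89 ± 0.06.
Among 20 heat shock and chaperone genes 10 were lower and 3 higher, where all genes had 22.8% and 15.7%, with a median of −0.56. BY minus RM changes were negative in 12, against 16.7% of all genes. HSP26 (YBR072W), a small chaperone, was at 9.33 and 10.1 CPM in the hybrid and 87.0 and 102 CPM in the co-culture (−3.26 ± 0.22), with an RM change of −1.69 ± 0.21. HSP104 (YLL026W), the disaggregase, was at 283 and 301 CPM in the hybrid and 578 and 622 CPM in the co-culture (−1.04 ± 0.07), with an RM change of 0.04 ± 0.09. HSP30, of the plasma membrane, changed by −3.90 ± 0.25 and BTN2, which sorts misfolded proteins, by −2.10 ± 0.18. The 3 that rose, SSC1 (0.28 ± 0.06), HSP60 (0.34 ± 0.06) and MDJ1 (0.57 ± 0.08), are chaperones of the mitochondrion. HSP78, another mitochondrial chaperone of the list, was not among them. These 3 were noticed after their values were seen. Of 17 genes of trehalose, glycogen and general stress 8 were lower and 0 higher (4 lower with DESeq2), such as GSY2, glycogen synthase (−1.13 ± 0.10), and TPS1, of trehalose synthesis (−0.67 ± 0.08).

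Proteasome genes shifted by little. Of 26 tested 12 BY copies were lower and 1 higher with a median of −0.17, which lies near the median of all genes (−0.09). The RM copies had 8 higher and 1 lower with a median of 0.15. The lower count for BY was 7 under TMM, 6 under RLE scaling, 1 with DESeq2 and 6 without co-culture replicate 2. RPN3 (YER021W), of the regulatory lid, was at 827 and 882 CPM in the hybrid and 1069 and 1065 CPM in the co-culture (−0.32 ± 0.06). PRE1 (YER012W), of the core, was at 402 and 402 CPM in the hybrid and 498 and 523 CPM in the co-culture (−0.35 ± 0.07). PRE7 (YBL041W), another core subunit, was at 594 and 538 CPM in the hybrid and 742 and 693 CPM in the co-culture (−0.35 ± 0.07), lies on the left end of chromosome II and had an RM change of 0.41 ± 0.09. The proteasome element GGTGGCAAA, which the activator Rpn4 binds, stood on either strand in 20 of the 26 promoters (76.9%) and in 1.2% of all. The matches in the 3 genes are shown in capitals, from R64 and 5′ to 3′ on the strand of the gene, because most of the list shares the element:
RPN3, chrV:196843-196871, plus strand: acgaaaaacaTTTGCCACCcaagaaagag
PRE7, chrII:141150-141178, plus strand: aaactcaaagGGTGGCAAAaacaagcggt
PRE1, chrV:177683-177711, plus strand: aaatctttacGGTGGCAAAaaataaagaa
RPN4 itself changed by −0.23 ± 0.07 (adjusted p = 0.0129).

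Several amino acid and purine pathways were lower for the BY copies. LEU1, OAC1 and the transaminases serve leucine and branched-chain synthesis. LEU1 (YGL009C), isopropylmalate isomerase, was at 377 and 391 CPM in the hybrid and 2001 and 2017 CPM in the co-culture (−2.39 ± 0.06), with an RM change of −1.95 ± 0.07. OAC1 (YKL120W), a mitochondrial carrier of the pathway's intermediate, was at 204 and 201 CPM in the hybrid and 957 and 868 CPM in the co-culture (−2.17 ± 0.07), with an RM change of −1.87 ± 0.08. BAT1, the mitochondrial transaminase, changed by −1.44 ± 0.06 in BY and −1.39 ± 0.07 in RM. BAT2, the cytosolic one, changed by −1.35 ± 0.08 in BY and 1.02 ± 0.10 in RM, opposite in direction. Of 10 leucine and branched-chain genes 7 BY copies were lower and 1 higher, and the higher 1 (ILV6) was lost without hybrid replicate 2 or co-culture replicate 1. TGACTC, the core that Gcn4 binds, stood in 6 of 10 promoters and in 6.8% of all. BAT1 and ILV6, the gene called higher, held it, and LEU1, OAC1 and BAT2 did not.
For histidine, 3 of 5 BY copies were lower and 0 RM copies changed at the threshold. HIS4 was at 101 and 101 CPM in the hybrid and 215 and 211 CPM in the co-culture (−1.08 ± 0.10) and HIS5 at 48.1 and 48.7 CPM in the hybrid and 127 and 111 CPM in the co-culture (−1.29 ± 0.14). RM changes were −0.12 ± 0.13 for HIS4 and −0.08 ± 0.14 for HIS5, and the BY minus RM changes were −0.94 ± 0.15 (adjusted p = 2.75e-08) and −1.20 ± 0.17 (adjusted p = 1.47e-09).
Of 12 purine genes 7 BY copies and 6 RM copies were lower, against 22.8% of all BY and 12.4% of all RM copies tested. ADE17 (YMR120C), for the last steps of IMP synthesis, was at 126 and 113 CPM in the hybrid and 460.4 and 432 CPM in the co-culture (−1.91 ± 0.09), with an RM change of −0.99 ± 0.10, and ADE1, ADE13 and ADE2 changed by −1.16 ± 0.08, −0.86 ± 0.06 and −0.68 ± 0.11. LYS2 (YBR115C), of lysine synthesis, did not pass for BY at 626 and 652 CPM in the hybrid and 589 and 608 CPM in the co-culture (0.10 ± 0.06, adjusted p = 0.233), although its RM copy had 0 reads in both hybrid libraries and 738 and 882 in the co-culture.

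Other nutrient lists, except lysine synthesis, had calls in both directions. Of all genes 15.7% were higher and 22.8% lower, and several of these lists lay near those shares. Methionine and sulfur genes had 6 of 24 higher and 8 lower, where the lower count was 2 with DESeq2, 5 without hybrid replicate 1 and 4 without co-culture replicate 2. MMP1 (YLL061W), the S-methylmethionine permease, was at 409.6 and 450.4 CPM in the hybrid and 112 and 117 CPM in the co-culture (1.91 ± 0.09), with an RM change of 0.46 ± 0.08, and MET6, methionine synthase, changed by −1.54 ± 0.13. Arginine and glutamate genes had 2 of 12 higher and 5 lower (3 lower with DESeq2 and 3 without hybrid replicate 2), with GLT1, glutamate synthase, at 0.72 ± 0.06 and ARG4, of arginine synthesis, called lower at 156 and 173 CPM in the hybrid and 309.7 and 350.1 CPM in the co-culture. Zinc genes had 2 of 8 higher and 2 lower, and ZRT1, the high-affinity transporter, rose by 0.81 ± 0.07 in BY and 1.02 ± 0.08 in RM. For pyrimidine synthesis 2 of 10 were higher and 1 lower, for lysine 1 of 5 and 0, for glycolysis 2 of 6 and 1, and for hexose transport and galactose use 3 of 14 and 1. HXT2 (YMR011W), a hexose transporter on chromosome XIII, was the largest of the last, at 586 and 582 CPM in the hybrid and 225 and 212 CPM in the co-culture (1.42 ± 0.07), with an RM change of 0.54 ± 0.07.

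Ribosome biogenesis rose as a block of small changes. Its factors process ribosomal RNA and assemble subunits in the nucleolus, and their promoters are known for the PAC and RRPE elements. Of 72 tested, 62 BY copies were higher and 0 lower, with a median of 0.42, and 42 RM copies were higher and 0 lower, with a median of 0.33. The highest change in the list was 0.86. TIF6 (YPR016C), which keeps the subunits apart until the large subunit is mature, was at 513 and 504 CPM in the hybrid and 288 and 309.6 CPM in the co-culture (0.76 ± 0.07, adjusted p = 6.61e-10). NOG1 (YPL093W), a GTPase of the same particle, was at 1715 and 1643 CPM in the hybrid and 1192 and 1136 CPM in the co-culture (0.53 ± 0.06). SPB1, a methyltransferase, changed by 0.64 ± 0.06, RRP12, of export, by 0.64 ± 0.06 and UTP20, of the small subunit processome, by 0.58 ± 0.06. GATGAG, the core of PAC, stood on either strand in 66 of the 72 promoters (91.7%) and in 16.0% of all, and AAAATTT, the core of RRPE, in 67 (93.1%) and in 22.5%. The 250 bases before the start of TIF6 and NOG1 are shown from R64 with both elements in capitals, 5′ to 3′ on the strand of the gene, because they hold both:
TIF6, chrXVI:593070-593319, minus strand: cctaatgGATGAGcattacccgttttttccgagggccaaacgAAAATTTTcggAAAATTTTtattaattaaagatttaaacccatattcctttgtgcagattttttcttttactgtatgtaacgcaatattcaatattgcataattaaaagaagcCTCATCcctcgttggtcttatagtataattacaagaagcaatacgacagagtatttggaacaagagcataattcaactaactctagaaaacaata
NOG1, chrXVI:370728-370977, plus strand: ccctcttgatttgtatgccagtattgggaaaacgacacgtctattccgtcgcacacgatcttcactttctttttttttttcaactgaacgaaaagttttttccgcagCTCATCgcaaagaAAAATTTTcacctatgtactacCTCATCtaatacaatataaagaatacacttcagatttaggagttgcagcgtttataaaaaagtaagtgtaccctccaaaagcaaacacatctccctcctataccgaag
Matches say where the letters are, not that a factor acts there.

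The polymerases that make ribosomal RNA and transfer RNA followed, with 13 of 18 higher and 0 lower and a median of 0.30. RPA190, the largest subunit of polymerase I, was at 687 and 702 CPM in the hybrid and 506 and 485 CPM in the co-culture (0.49 ± 0.06). RRN11, of its initiation factor, changed by 0.80 ± 0.11 and RPO31, of polymerase III, by 0.33 ± 0.06. Cytosolic ribosomal proteins moved less evenly, with 20 of 70 higher and 6 lower and a median of 0.13 (12 higher and 3 lower with DESeq2). RPP0, of the stalk, rose by 0.45 ± 0.07, RPL9B by 0.51 ± 0.07 and RPS26B by 1.23 ± 0.21, and RPL20B fell by 1.30 ± 0.20. Except for a few, such as RPP0, their reads are uncertain because a near-identical paralog shares the sequence.

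**Figure D4:**
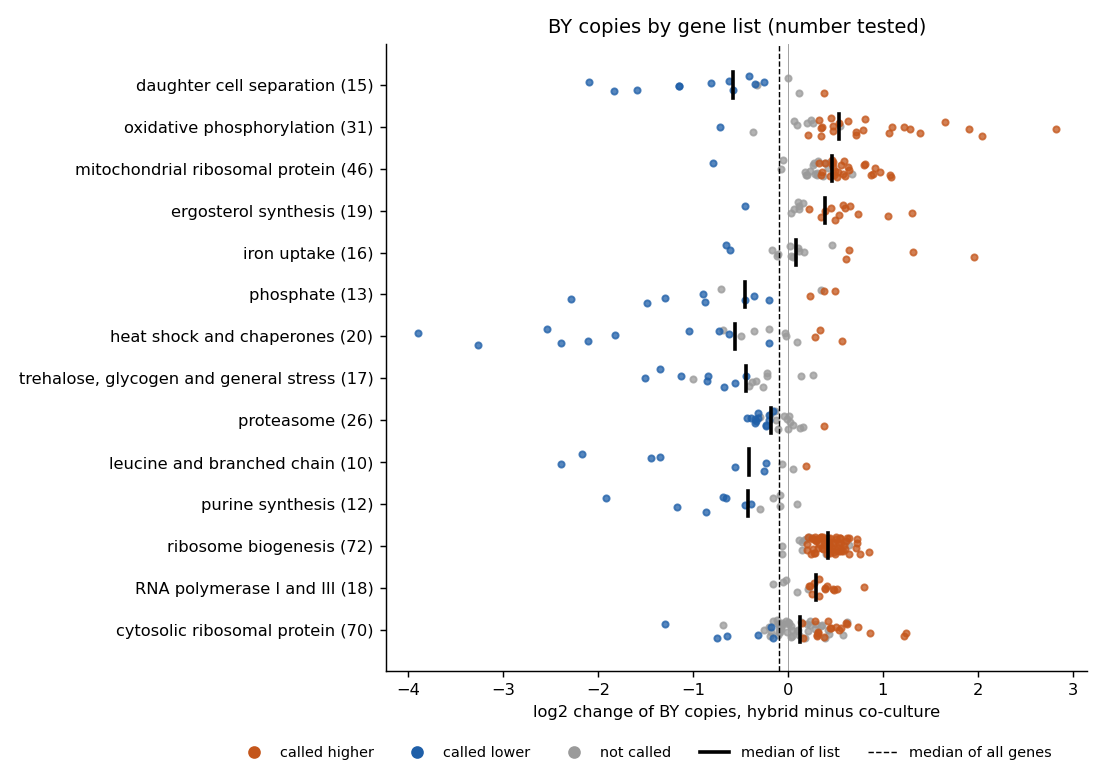
Log2 change of the BY copies in the hybrid against the co-culture, by gene list, with 1 point per tested gene, the number tested after the list's name, orange for genes called higher, blue for lower and grey for not called. Black bars mark the median of the list and the dashed line the median of all genes (−0.09), and among the lists drawn, which leave out the mating, meiosis and adhesion lists among others, the medians run from −0.58 for daughter cell separation to 0.54 for oxidative phosphorylation.

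Cell cycle and wall genes had members on both sides, where all genes had 15.7% higher and 22.8% lower. CLN3 (YAL040C), the cyclin that measures size at the start of the cycle, was higher at 438 and 424 CPM in the hybrid and 230.2 and 239.6 CPM in the co-culture (0.87 ± 0.08), with an RM change of 0.00 ± 0.07. CLN2 and CLN1, later G1 cyclins, changed by −0.88 ± 0.11 and −0.75 ± 0.11, and 6 of 14 genes of G1 control were lower and 2 higher (3 lower with DESeq2). Of 16 cell wall genes 6 were higher and 7 lower, with TIR3, a mannoprotein, at 1.16 ± 0.10 and SPI1, a stress-induced wall protein, at −2.16 ± 0.23. All 4 tested genes of flocculation and adhesion were lower (2 with DESeq2). Among them TEC1, a filamentous growth factor, was at 33.7 and 28.9 CPM in the hybrid and 151 and 151 CPM in the co-culture (−2.28 ± 0.15), with an RM change of −3.64 ± 0.13. CMK2 (YOL016C), a calmodulin kinase, was among the largest falls, at 12.2 and 13.0 CPM in the hybrid and 190.5 and 240.3 CPM in the co-culture (−4.08 ± 0.17), with an RM change of −1.72 ± 0.24. RPM2, of mitochondrial RNase P, and FDO1, both on chromosome XIII, rose by 1.34 ± 0.08 and 1.34 ± 0.17. MTO1, for mitochondrial tRNA modification, rose by 1.23 ± 0.12 and overlaps YGL235W. Falls of YOR385W (−3.10 ± 0.14), YGL193C (−3.05 ± 0.23) and DIA1 (−3.02 ± 0.20) were also among the 15 largest of genes with a mean of at least 50 BY reads, and YGL193C and DIA1 overlap YNCG0006C and YMR316C-A.

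The share of reads that came from the BY copy was also followed along the chromosomes, in 185 consecutive windows of 20 gene pairs with a mean of at least 20 reads in each allele. On 2 stretches both hybrid libraries left the level near 50% that the co-culture kept. At the left end of chromosome II, from MIX23 to ACH1 (chrII:9961-195702, R64), the median BY share in hybrid replicates 1 and 2 was 33.9% and 34.5% in the leftmost window. It was 35.0% and 35.0% in the next and 28.8% and 34.9% in the third. In the co-culture the same 3 windows lay between 48.4% and 50.2%. In the fourth window, which begins at RRN6, the hybrid values were 50.7% and 51.4%. On chromosome XIII all 15 windows lay between 38.5% and 43.2% in the hybrid and between 45.5% and 52.7% in the co-culture. The other 167 windows lay between 47.3% and 53.8% in the hybrid and 46.2% and 57.1% in the co-culture.

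The 2 stretches differed in which copy moved. In the left end of chromosome II the BY copies had a median change of −0.60 and the RM copies 0.36, and 43 of 64 BY copies were lower (67.2%) and 4 higher. On the rest of chromosome II the medians were −0.15 and −0.11, and 74 of 252 BY copies were lower. On chromosome XIII the BY copies had a median of −0.05, with 58 higher and 58 lower of 327, and the RM copies a median of 0.51. Outside both stretches 601 of 3824 BY copies were higher (15.7%) and 859 lower (22.5%), with medians of −0.09 for BY and −0.01 for RM. Refitted without both, 604 genes were higher and 844 lower. The stretch on chromosome II was chosen after the shares were seen, so it has no test, and the number of copies of each chromosome in the hybrid cells was not tested. Of the genes named above, FUS3, ATP1, COR1, HAP3, PRE7 and MRPL16 lie in it.

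**Figure D5:**
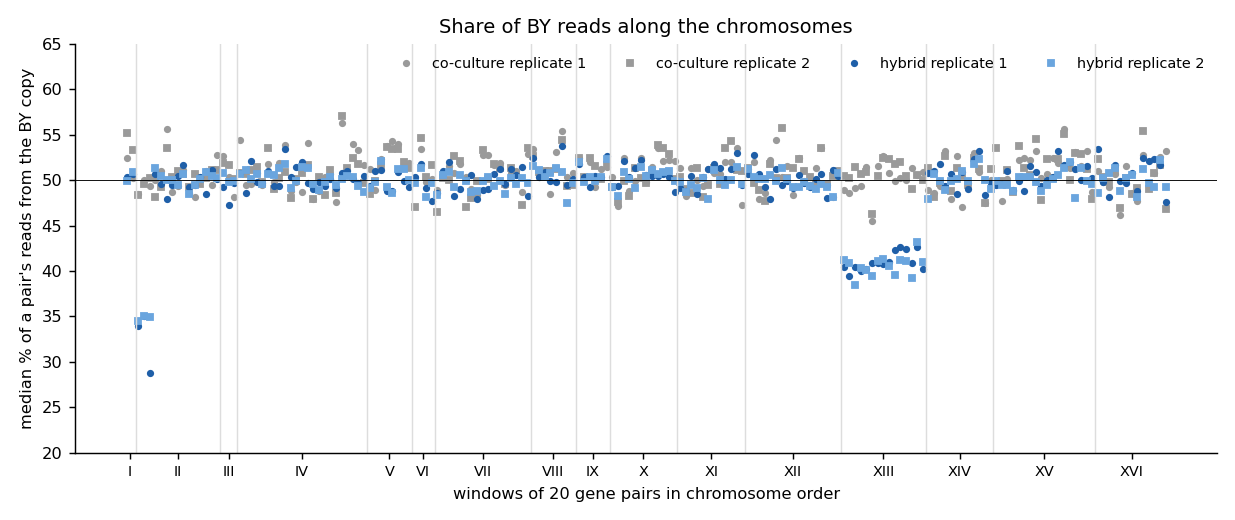
Median percentage of a gene pair's reads that came from the BY copy in consecutive windows of 20 pairs, in chromosome order, in blue for the 2 hybrid libraries and grey for the 2 co-culture libraries, with a line at 50%. The hybrid points of the 3 leftmost windows of chromosome II (28.8% to 35.0%) and of chromosome XIII (38.5% to 43.2%) lie below all other windows.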

How the data were processed

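Messenger RNA was sequenced in 2 hybrid and 2 co-culture libraries, after polyA selection and random priming per the labels' protocols, which split each product between PCR reactions with different reagents. Which culture or reaction a library number stands for is not stated. The deposited files hold read counts, taken as the authors' raw counts of BY and RM reads on the SNP sites of 4442 gene pairs, per the file headers. CASAVA 1.8.2 and Bowtie are named, per the submitters' processing notes. Genome build, SNP set and counting rule were not given in the sources used here, and PCR duplicates cannot be removed from such counts, so counting intervals cover counting error only.

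BY counts were tested with edgeR 4.0.16 (glmQLFit and glmQLFTest, two-sided, 2 residual degrees of freedom) in R 4.3.3, with each library size the total of the BY column, filterByExpr (minimum count 10) and Benjamini-Hochberg adjustment over the 4215 genes tested. A second fit of all 8 allele columns had library as a block, and its interaction gave the BY change minus the RM change. RM copies were fitted like the BY copies. The tests were run first on simulated counts with 1.5-fold and 2-fold changes added. For BY 59.6% and 88.9% of these were recovered, and for the BY minus RM change 38.4% and 73%. A gene that did not pass may therefore still have changed. Alternatives were TMM and RLE scaling, whole library totals, DESeq2 1.42.0, no filter, 50 mean reads as a filter, a replicate block, no library block, the spread of the 8 columns, no chromosome XIII and each library left out. Fits without the left end of chromosome II were added after the data were seen.

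Of the 4442 systematic names, 4325 matched the R64 annotation (S288C, NCBI RefSeq), which gave symbols, positions and the 250 bases before each annotated start. It placed 89 genes in overlap with another, whose reads are uncertain because no strand is stated. The 34 gene lists, the named genes and the comparisons were chosen with earlier results of these data known. Named genes were the 15 largest rises and falls with a mean of at least 50 BY reads and groups that do not overlap, up to 5 members of each list with the smallest p, all members of the mating, daughter cell and marker lists, and the 10 largest BY minus RM changes in each direction. A few results of these rules are not reported here. Other members named beside them were chosen after their values were seen. Where a group had 0 reads a bound was set at 3 reads over the group.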

Additional observations from a re-analysis of the deposited data

Results flagged for a closer look

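The genes below were drawn out because the BY and RM copies, in the same libraries, changed differently between co-culture and hybrid at an adjusted p of 0.05 in edgeR's quasi-likelihood test, and lay among the 10 largest differences in a direction. Values are log2 changes of BY minus log2 changes of RM, and no cause was tested.

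Toward BY, the difference was 3.24 for CYC1, 3.08 for HMX1, 2.45 for OLE1, 2.36 for RIP1 and 1.92 for CYT1, genes of respiration, heme and fatty acids. It was 2.03 ± 0.27 for CIN5, a stress transcription factor, where the BY copy did not pass (0.34 ± 0.17) and the RM copy fell (−1.69 ± 0.26). It was 1.97 ± 0.12 for TPO1, a polyamine exporter, with changes of 0.94 ± 0.10 in BY and −1.03 ± 0.09 in RM. HMS1, a transcription factor of filamentous growth, had 1.88 ± 0.26, again with a BY change that did not pass (−0.29 ± 0.22) and an RM fall (−2.17 ± 0.16). YJL107C, which overlaps YJL108C, had 1.82 ± 0.24. LYS2 is left out here because its RM copy had 0 reads in the hybrid.

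Toward RM, it was −5.28 for DSE1, −4.74 for DSE2, −4.27 for CTS1 and −3.38 for SCW11, the daughter cell genes. QDR2, a multidrug exporter, had −2.73 ± 0.14, with BY at −1.18 ± 0.09 and RM at 1.55 ± 0.13. GCV2, of glycine cleavage and on chromosome XIII, had −2.47 ± 0.15, with BY at −1.55 ± 0.11 and RM at 0.92 ± 0.13. FET4, on chromosome XIII, had −2.47 ± 0.14, BAT2 −2.37 ± 0.12, CMK2 −2.37 ± 0.32 and MFA1 −2.50 ± 0.77, the last from 4 BY reads in the hybrid.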

How the results depend on the processing

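Among 188 named BY results, 169 passed the threshold and 143 of these did so under every alternative in which the gene was fitted, 158 when DESeq2 is set aside, and 0 reversed. DESeq2 called 820 BY genes, 455 higher and 365 lower, against 1623, 663 and 960. For the BY minus RM change it called 352, with 221 positive and 131 negative, against 1151, 437 and 714. With 1 library left out, where the lone sample is assumed to vary like the other group, the BY calls lay between 1181 and 1375. The BY minus RM calls then lay between 564 and 832, with 252 to 336 positive and 312 to 496 negative. Without a library block 821 were called. Libraries share a replicate number across groups, but 2 pairs cannot show a pairing: the deviations of equally numbered libraries had a correlation of 0.138 over all genes tested and 0.202 over the 3368 with a mean of at least 50 BY reads, and a fit with a replicate block called 1936 BY genes (773 higher and 1163 lower) and 1162 BY minus RM changes. Small lists (zinc, lysine, glycolysis, hexose transport, pyrimidine, TCA cycle) moved by 1 or 2 calls when a library was left out. Depth limits genes with few BY reads, since 227 pairs were not tested.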
